A study of Mus musculus with 9 samples.

Results

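Interferon-gamma induces 2 families of GTPases, the guanylate-binding proteins (GBP) and the immunity-related GTPases (IRG), and their transcripts were followed here through the cells of mouse livers in which the transcriptional co-activator YAP had been switched on. The members are 10 listed genes, Gbp2, Gbp2b, Gbp3, Gbp4, Gbp5, Gbp6, Gbp7, Igtp, Iigp1 and Irgm1, of 27998 genes in the count table. All 10 had a row. They were chosen by name, as genes of these families, with earlier measured values of these data in view, namely the lower counts of Gbp2b in macrophage-like cells after 7 days of induction than in WT. Values of the members in that class and that contrast are therefore given as a description, and no test of them is read.

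Cells of whole collagenase-treated livers of C57BL/6 mice were captured in droplets and counted by unique molecular identifiers (UMIs), each of which tags 1 captured transcript. All mice carried ROSA26-rtTA-IRES-EGFP and ate doxycycline food. The 2 WT libraries had no tetYAP allele and 7 days of doxycycline. The 4 YAP3d libraries carried tetYAP, which encodes an active form of YAP, and had 3 days of doxycycline (acute induction), and the 3 YAP7d libraries carried tetYAP and had 7 days (tonic induction). By the study's methods the doxycycline-dependent activator was released by a Cre under the Albumin promoter, so the transgene was limited to cells of the hepatocyte lineage, and the macrophages, endothelial cells and lymphocytes described below were not expected to carry the active transgene. Ages of these mice were not given in the sources used here, and the labels do not say whether each library came from a mouse of its own, so that p-values measure the spread between libraries, which may be technical.

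Both families are core effectors of the response to interferon-gamma. The cytokine, made mainly by T and NK cells, binds a receptor of Ifngr1 and Ifngr2 chains, and the signal passes through Janus kinases to transcription factors, IRF1 among them, that switch on GBP and IRG genes in most cell types. The proteins assemble on vacuoles that hold bacteria or parasites, where the autophagy conjugation machinery guides them, and GBPs promote inflammasome activation by caspase-11. Igtp and Irgm1 encode regulatory IRGs that protect the cell's own membranes, while Iigp1 encodes an effector IRG that coats and disrupts vacuoles. Gbp2b encodes the protein called GBP1 in mice.

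In the RefSeq annotation of GRCm38.p6, the assembly behind mm10, all 10 were protein-coding genes. Of the GBP genes, 5 lie side by side on chromosome 3, in the order Gbp5 (142496934 to 142522344), Gbp7 (142530336 to 142550151), Gbp3 (142560016 to 142573213), Gbp2b (142594816 to 142619179) and Gbp2 (142620663 to 142638008). Gbp4 (105115767 to 105139586) and Gbp6 (105270702 to 105295871) lie on chromosome 5. Irgm1 (48865245 to 48871420) and Igtp (58199556 to 58207592) lie on chromosome 11, and Iigp1 has a locus of its own, given with its values below. Genes of both families resemble their neighbours in sequence, so reads may be split or lost among close copies, and each member's count is uncertain to that extent. Gbp6 had 0 counts among 63380159 UMIs, and a second row of the same symbol, Gbp6.1, had 121 counts in T cell-like cells with a mean of 14.4 CPM (SD 5.7, n = 9 libraries). Which gene model each of these rows stands for was not settled, and neither was tested.

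Promoter sequences are shown for a run of letters that resembles the element bound by interferon-activated factors, which played no part in choosing the members. RefSeq promoter sequences were given for 7 members, and the 250 bases before each start were searched on both strands for GAAA followed by any 2 bases and a second GAAA, the core of an interferon-stimulated response element (ISRE). A match was found in 7 of these 7 members, against 936 of 27025 genes (3.46%) and 978 of 32851 promoter windows (2.98%). Among other GBP and IRG genes 4 of 8 held it. The gamma-activated sequence TTCNNNGAA was found in 3 members, Gbp5, Gbp7 and Igtp, against 2197 of 27025 genes (8.13%). Below, each stretch is read 5′ to 3′ on the strand of its gene, with the ISRE-type match in capitals, which show TTTC at both ends where the match lies on the opposite strand.
Gbp2, chr3:142620594-142620623, plus strand: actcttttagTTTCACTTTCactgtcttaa
Gbp2b, chr3:142594700-142594729, plus strand: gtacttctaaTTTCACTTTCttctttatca
Gbp5, chr3:142496759-142496788, plus strand: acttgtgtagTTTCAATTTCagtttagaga
Gbp7, chr3:142530273-142530302, plus strand: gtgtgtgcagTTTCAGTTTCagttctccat
Igtp, chr11:58199512-58199541, plus strand: tctaggaactGAAACTGAAAgctgttcggg
Irgm1, chr11:48871431-48871460, minus strand: cctgtttcaaGAAATAGAAAccgaaactga
The match ended 49 bases before the start of Gbp2, 127 bases before that of Gbp2b, 155 bases before that of Gbp5 and 43 bases before that of Gbp7. For Gbp2b the start is that of its promoter sequence, which lies downstream of the gene start given above. It lay closer in the IRG genes, at 24 bases for Igtp and 20 bases for Irgm1, where a second match overlapped it at 14 bases. Gbp3 held overlapping matches at 35 and 29 bases before one of its annotated starts and none before the other. The Gbp2 and Gbp2b promoters, whose genes are neighbours, held the same 10 letters, TTTCACTTTC, although the transcripts differed in where they were found. A match is a run of letters and was not tested as a binding site.

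Cells were grouped without the listed genes and named by fixed markers into 15 classes, each called by the type it resembles. Of 8562 cells 8527 were kept. Libraries held 293 to 2554 cells and 1314878 to 25056881 UMIs, with a median of 3190.5 to 11471.5 UMIs per cell, deepest in a YAP7d library. For each class of a library the counts of its cells were added up, and levels are counts per 1000000 UMIs of that sum (CPM). A class entered in a library with at least 10 cells, which all 9 libraries had for macrophage-, endothelial-, T cell-, NK cell- and B cell-like cells. Barcodes found in more than 1 library numbered 46 of 8515. The pseudogene Gm10709 exceeded 100 CPM in YAP3d replicates 1 and 2 and in all 3 YAP7d libraries, and in no WT library or other YAP3d library. The source of this difference is not given in the sources used here. It divides only the YAP3d group, and between WT and YAP7d it cannot be told apart from the group.

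The members were not spread evenly over the liver's cell classes, and each kept its own order (mean CPM over libraries ± SD). Gbp2b was concentrated in macrophage-like cells at 79.8 ± 105 CPM (n = 9), with endothelial-like cells next at 1.99 CPM. Of the Gbp2b counts in cells of a named class, 84 of 95 (88.4%) came from macrophage-like cells in WT, 52 of 62 in YAP3d and 69 of 76 in YAP7d. Outside the named classes, 1 cluster of 22 cells that stayed unnamed held 17 Gbp2b counts in WT, all from 15 cells of replicate 2, 10 in YAP3d and 1 in YAP7d, so that WT libraries held 112 counts in all. This cluster had 11 of 12 macrophage markers raised against clusters of other types. The naming rule left it unnamed, since its top 10 genes held 0 of these markers and 1 of another type. The level of Gbp2b outside macrophage-like cells is thus given only for named classes. Gbp3 also was highest in macrophage-like cells, at 77.5 ± 34.2 CPM (n = 9), followed by monocyte-like cells at 49.7 ± 19.3 CPM (n = 6). Gbp2, in contrast, was highest in nonclassical monocyte-like cells at 102 ± 51.8 CPM (n = 6). Gbp5 was low throughout and, among classes held by more than 1 library, highest at 17.3 CPM in type 2 dendritic cell-like cells and 15.7 CPM in macrophage-like cells.

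Lymphocytes carried 3 members at their highest levels. T cell-like cells led for Gbp4 (89.2 ± 26.7 CPM), Gbp7 (104 ± 31.2 CPM) and Igtp (111 ± 38.9 CPM, each n = 9). NK cell-like cells followed for Gbp4 at 78.1 ± 25.8 CPM and for Gbp7 at 86.3 ± 25.9 CPM. The effector Iigp1 ran the other way, at 190.1 ± 79.4 CPM in endothelial-like cells (n = 9) and 169.7 ± 86.5 CPM in hepatocyte-like cells (n = 6), against 50.8 ± 42.7 CPM in macrophage-like cells and 0.453 CPM in B cell-like cells. The hepatocyte-like mean comes only from libraries with induced YAP, and over the 6 libraries that held both classes Iigp1 was at 155 ± 63.6 CPM in endothelial-like cells, higher than in hepatocyte-like cells in 3 of them, so that the order of these 2 classes is not settled. Irgm1 was highest in endothelial-like cells, at 134 ± 44.2 CPM (n = 9), and its lowest class mean was 29.3 CPM, in B cell-like cells. No share of free RNA was estimated, so low levels such as this one are not read as expression. Library values of neighbouring classes in these orders overlapped, except that Iigp1 was at 85.3 CPM or more in 6 libraries of hepatocyte-like cells and at 84.5 and 17.7 CPM in 2 of cholangiocyte-like cells, and only 1 library held both. Since classes were built from the same cells, these orders are a description.

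**Figure D1:**
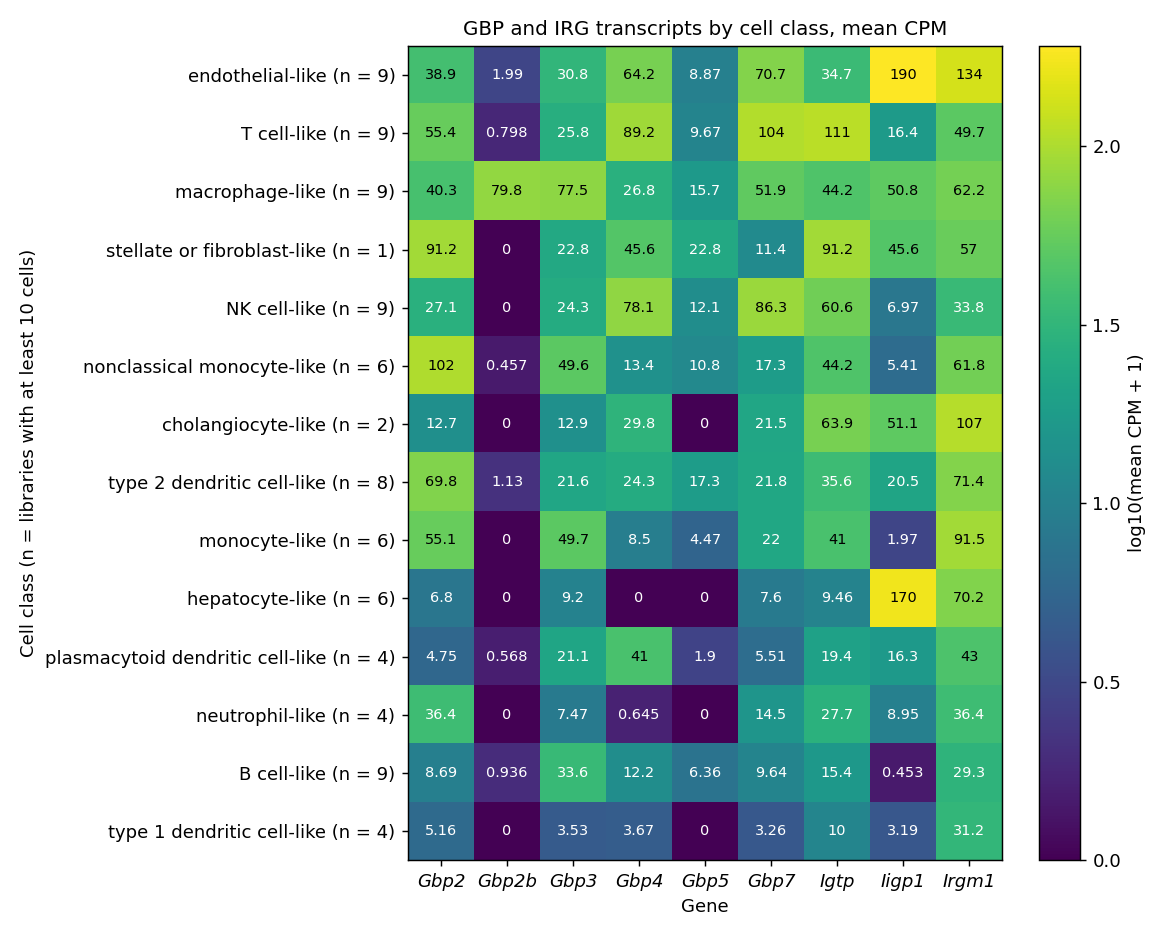
Mean CPM (printed numbers; colour is log10 of mean CPM + 1) of the 9 members with counts (columns) in 14 cell classes (rows), averaged over the n libraries with at least 10 cells of the class; compare classes down a column. Gbp2b stands out in the macrophage-like row at 79.8 CPM, Iigp1 peaks in endothelial-like and hepatocyte-like cells, and Gbp4, Gbp7 and Igtp peak in T cell-like cells.

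In macrophage-like cells the IRG genes stood lower in livers with induced YAP. Igtp was at 128 and 61.0 CPM in the 2 WT libraries, 51.7, 31.4, 27.6 and 28.8 CPM in the 4 YAP3d libraries and 36.7, 16.1 and 17.0 CPM in the 3 YAP7d libraries. Iigp1 was at 153 and 82.6 CPM in WT, 34.4, 29.5, 36.7 and 37.8 CPM in YAP3d and 34.9, 37.9 and 10.4 CPM in YAP7d. Irgm1 was at 140.3 and 94.4 CPM in WT, 51.7, 49.8, 55.1 and 41.4 CPM in YAP3d and 64.0, 31.4 and 31.5 CPM in YAP7d. For all 3 genes both WT libraries lay above every library with induced YAP, and the YAP3d and YAP7d libraries overlapped. Expressed as log2 fold changes of YAP7d over WT (edgeR), the differences were -2.03 for Iigp1 (SE 0.48), -1.85 for Igtp (SE 0.46) and -1.43 for Irgm1 (SE 0.38). Macrophage-like cells numbered only 30 and 66 in the WT libraries and 12 to 82 in the YAP3d libraries, against 146 to 426 in the YAP7d libraries.

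Among the GBP genes of macrophage-like cells, Gbp2b differed most. It was at 332 and 114 CPM in WT, 121, 3.69, 64.3 and 64.8 CPM in YAP3d and 6.71, 9.96 and 2.94 CPM in YAP7d. The WT libraries held 26 and 58 counts of Gbp2b, and the YAP7d libraries 15, 26 and 28 counts from several times as many cells. YAP3d spanned the range between, with replicate 2 at the YAP7d level on 2 counts and replicate 1 at the lower WT level. Gbp4 was at 102 and 39.3 CPM in WT, 0, 20.3, 27.6 and 14.4 CPM in YAP3d and 18.3, 12.3 and 7.03 CPM in YAP7d, and the 0 came from a library of 12 cells in which 3 counts would be 51.7 CPM. Gbp5 was at 38.3 and 33.4 CPM in WT, 17.2, 5.53, 9.18 and 16.2 CPM in YAP3d and 9.84, 6.51 and 5.14 CPM in YAP7d. For Gbp4 and Gbp5, both WT libraries again lay above all 7 others.

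Gbp2, Gbp3 and Gbp7 had the smallest estimates. Gbp2 was at 76.5 and 59.0 CPM in WT, 34.4, 20.3, 18.4 and 54.0 CPM in YAP3d and 33.1, 40.2 and 26.9 CPM in YAP7d. Gbp3 was at 140.3 and 86.5 CPM in WT, 121, 38.7, 55.1 and 84.6 CPM in YAP3d and 64.4, 62.4 and 45.2 CPM in YAP7d. Gbp7 was at 51.0 and 74.7 CPM in WT, 51.7, 53.5, 18.4 and 88.2 CPM in YAP3d and 52.3, 50.9 and 26.5 CPM in YAP7d. Gbp7 was thus the one tested member whose WT and YAP7d libraries overlapped. The log2 fold changes of YAP7d over WT were -5.06 for Gbp2b (SE 0.73), -2.35 for Gbp5 (SE 0.60), -2.26 for Gbp4 (SE 0.56), -0.99 for Gbp2 (SE 0.43), -0.90 for Gbp3 (SE 0.40) and -0.73 for Gbp7 (SE 0.44).

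Taken as a group in that contrast, 9 of 9 tested members had a negative log2 fold change, as did 48.5% of the 6578 genes tested in macrophage-like cells. WT and YAP7d values did not overlap and were lower in YAP7d for 8 members and for 18.4% of genes. The median log2 fold change was -1.85 for the members and 0.03 for all genes. Since the members were listed with this contrast known, nothing is read from these counts.

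**Figure D2:**
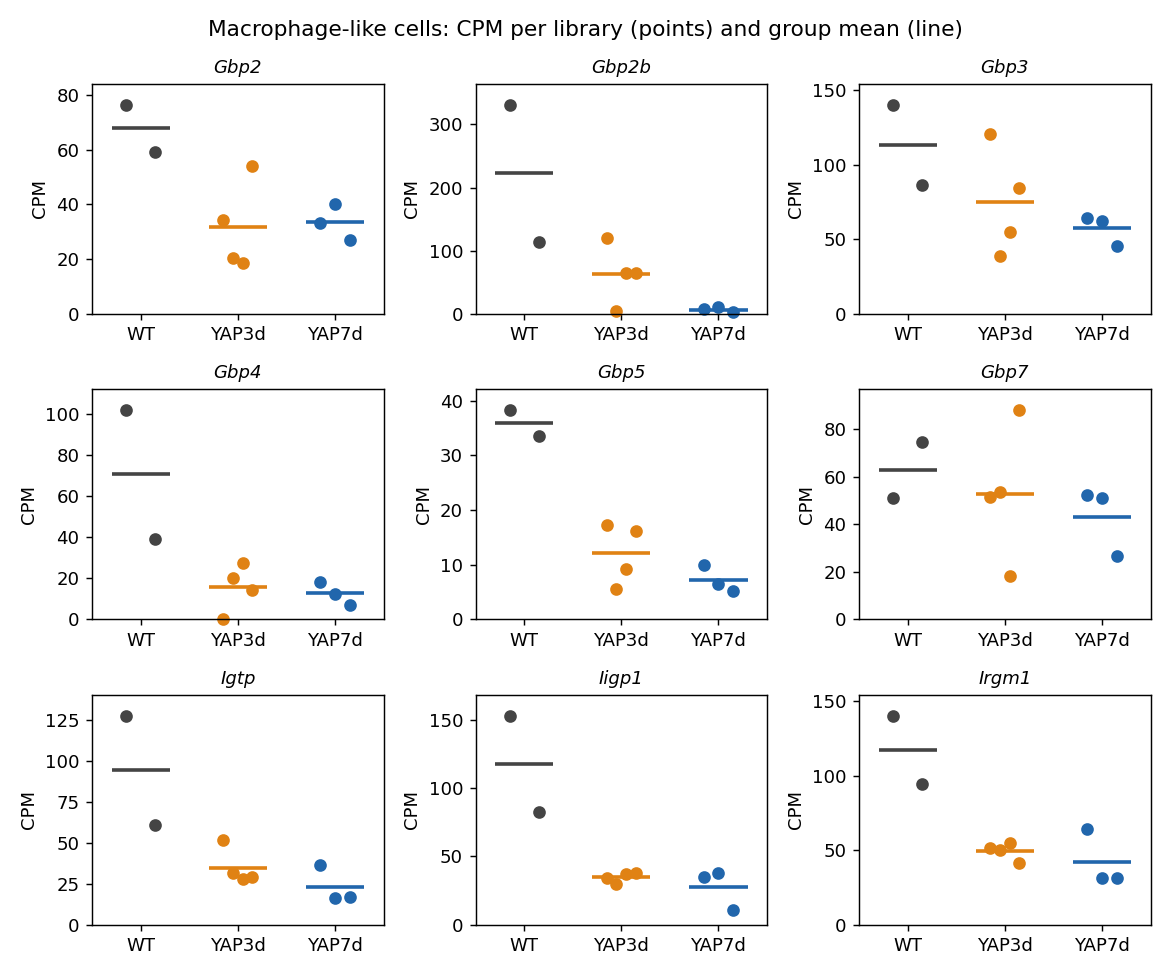
CPM of 9 members in macrophage-like cells, 1 point per library and a line at the group mean (2 WT, 4 YAP3d, 3 YAP7d; each panel has its own axis from 0). Both WT points lie above all YAP7d points in every panel but that of Gbp7, and for Gbp2b the YAP7d points lie at 2.94 to 9.96 CPM against 114 and 332 CPM in WT.

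The contrast of YAP3d with WT in macrophage-like cells gave 0 of 9 members with adjusted p below 0.05 by edgeR and 0 by DESeq2, and 0% of the 6578 genes. At an unadjusted p below 0.05, edgeR found 6 members lower, against 1.89% of genes, and DESeq2 found 5. All 9 log2 fold changes were negative, against 48.2% of genes, and ran from -2.09 to -0.22 with a median of -1.40. Between YAP7d and YAP3d edgeR called 0 of 9 members and DESeq2 0, against 0.228% of genes by edgeR, and each tool gave 1 member an unadjusted p below 0.05, where edgeR had 6.11% of genes lower. Both contrasts share libraries, WT or YAP7d, with the one known when the members were listed, so these counts are not independent of that choice.

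The macrophage-like class was not the same mixture in each group. It joined 3 clusters, and that without Kupffer cell markers, the genes of the liver's resident macrophages, held 12.5% of the class in WT (12 cells), 15.8% in YAP3d (27 cells) and 51.7% in YAP7d (404 cells). The name means that 0 Kupffer markers were raised there against all other cells. Cd5l, a Kupffer marker, was still among the top genes of that cluster against clusters of other types. Within the clusters with Kupffer markers alone, Gbp2b was at 343 and 132 CPM in WT, 131, 5.19, 88.4 and 81.1 CPM in YAP3d and 7.55, 11.5 and 3.97 CPM in YAP7d. Its log2 fold change of YAP7d over WT there was -4.86 (SE 0.67), about as large as in the whole class. Igtp in these clusters was at 132 and 56.1 CPM in WT and 35.7, 14.2 and 18.6 CPM in YAP7d. Iigp1 in the cluster without Kupffer markers was at 61.1 CPM in the 10 cells of WT replicate 2 and at 7.70, 7.72 and 6.88 CPM in YAP7d. That cluster had 10 or more cells in only 1 WT library and was not fitted. Of the members only Iigp1 is given for it, and its values do not stand for the others.

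Other genes moved with the members in the macrophage-like sums. The summed CPM of 9 Kupffer identity genes was 14099 to 14274 in WT and 5409 to 11141 in YAP7d. Of these 9 genes edgeR called 0 between YAP7d and WT, although all 9 log2 fold changes were negative. The 12 endothelial markers summed to 962 to 1046 CPM in WT and 149 to 232 CPM in YAP7d, and the 14 heat shock and dissociation genes to 5906 to 11820.0 CPM and 4817 to 5688 CPM. Their part in the members' values was not tested.

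In endothelial-like cells, whose values are not those that prompted the listing, the fall in YAP7d passed the test for 6 of 7 tested members, where 8.14% of all genes were called lower. Without YAP7d replicate 3 this held for 2 of them, Gbp4 and Iigp1, and not for the regulatory IRGs Igtp and Irgm1. The cells come from the same 2 WT and 3 YAP7d libraries as the macrophage-like cells, so this contrast is not independent of the one known at listing. Over all cells of a library, Gbp4 was at 77.2 and 62.0 CPM in WT and 34.0, 24.3 and 11.2 CPM in YAP7d. Gbp3, by contrast, was at 44.9 and 36.3 CPM in WT and 47.8, 47.1 and 29.5 CPM in YAP7d over all cells. Such values were not adjusted for the mix of classes, and endothelial-like cells numbered 276 and 503 in WT and 24, 23 and 64 in YAP7d. In WT, Iigp1 had a mean of 297 CPM and Irgm1 of 180.04 CPM in these cells, and no WT library held enough hepatocyte-like cells to compare.

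Iigp1 was at 296 and 298 CPM in WT, 187, 240.0, 167 and 198 CPM in YAP3d and 140.0, 54.1 and 130.4 CPM in YAP7d. Its locus is on chromosome 18 (60373616 to 60392634). The 3 groups did not overlap, and the log2 fold change of YAP7d over WT was -1.33 (SE 0.27, adjusted p = 0.00242, edgeR). Irgm1 was at 166 and 195 CPM in WT, 173, 180.0, 108 and 113 CPM in YAP3d and 108, 81.2 and 81.4 CPM in YAP7d. It fell by 0.97 on the log2 scale (SE 0.25, adjusted p = 0.013, edgeR), and its YAP3d values spread across those of WT down to the top of YAP7d. Igtp was at 40.2 and 74.6 CPM in WT, 41.6, 46.1, 24.9 and 33.1 CPM in YAP3d and 22.6, 18.04 and 11.1 CPM in YAP7d. Its fall of 1.92 on the log2 scale (SE 0.40, adjusted p = 0.00325, edgeR) had the largest estimate among the members of this class, and every YAP7d library lay below every other library.

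Gbp2 was at 50.8 and 58.2 CPM in endothelial-like cells of WT, 62.4, 36.9, 44.5 and 36.1 CPM in YAP3d and 27.1, 22.5 and 11.1 CPM in YAP7d. Its log2 fold change of YAP7d over WT was -1.64 (SE 0.36, adjusted p = 0.0052, edgeR), with no overlap. Gbp4 was at 99.3 and 105 CPM in WT, 38.2, 69.2, 97.8 and 58.5 CPM in YAP3d and 36.1, 49.6 and 23.4 CPM in YAP7d. The log2 fold change of Gbp4 was -1.61 (SE 0.34, adjusted p = 0.00352, edgeR), and WT lay above all other libraries. Gbp7 was at 79.2 and 107 CPM in WT, 65.9, 111, 80.0 and 66.3 CPM in YAP3d and 85.8, 22.5 and 18.9 CPM in YAP7d. YAP7d replicate 1 lay within the WT range for Gbp7, and the log2 fold change of -1.38 (SE 0.41) had an adjusted p of 0.03 (edgeR).

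Gbp3 was the tested member that did not pass in endothelial-like cells. It was at 39.0 and 39.3 CPM in WT, 34.7, 41.5, 39.1 and 27.7 CPM in YAP3d and 31.6, 4.51 and 20.1 CPM in YAP7d, a log2 fold change of -0.95 (SE 0.39, adjusted p = 0.103, edgeR). Gbp5, too low for the filter, was listed at 11.8 and 18.1 CPM in WT and 4.52, 4.51 and 2.23 CPM in YAP7d. Gbp2b was at 0 to 9.02 CPM in these cells and was not tested.

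Against the background, 6 of 7 tested members were called lower in YAP7d than in WT by edgeR, and 6 by DESeq2, where edgeR called 8.14% of the 7528 genes tested in this class lower. Library values did not overlap and were lower for 6 members, against 24.1% of genes, and 7 of 7 log2 fold changes were negative, against 51.0% of genes. The members' median was -1.38, and that of all genes -0.02. The YAP7d libraries held only 24, 23 and 64 endothelial-like cells, so that the Gbp2 values there rest on 6, 5 and 10 counts. The calls of Gbp4 and Iigp1 stood when any 1 of the 9 libraries was left out. With WT replicate 2 left out the count was 3, and with YAP7d replicates 2 and 3 left out together it was 0. Leaving out either WT library or these 2 YAP7d libraries leaves 1 library in that group, whose spread is then taken from the other groups. A term for libraries with over 100 CPM of Gm10709, which rests on the YAP3d libraries, left 2.

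**Figure D3:**
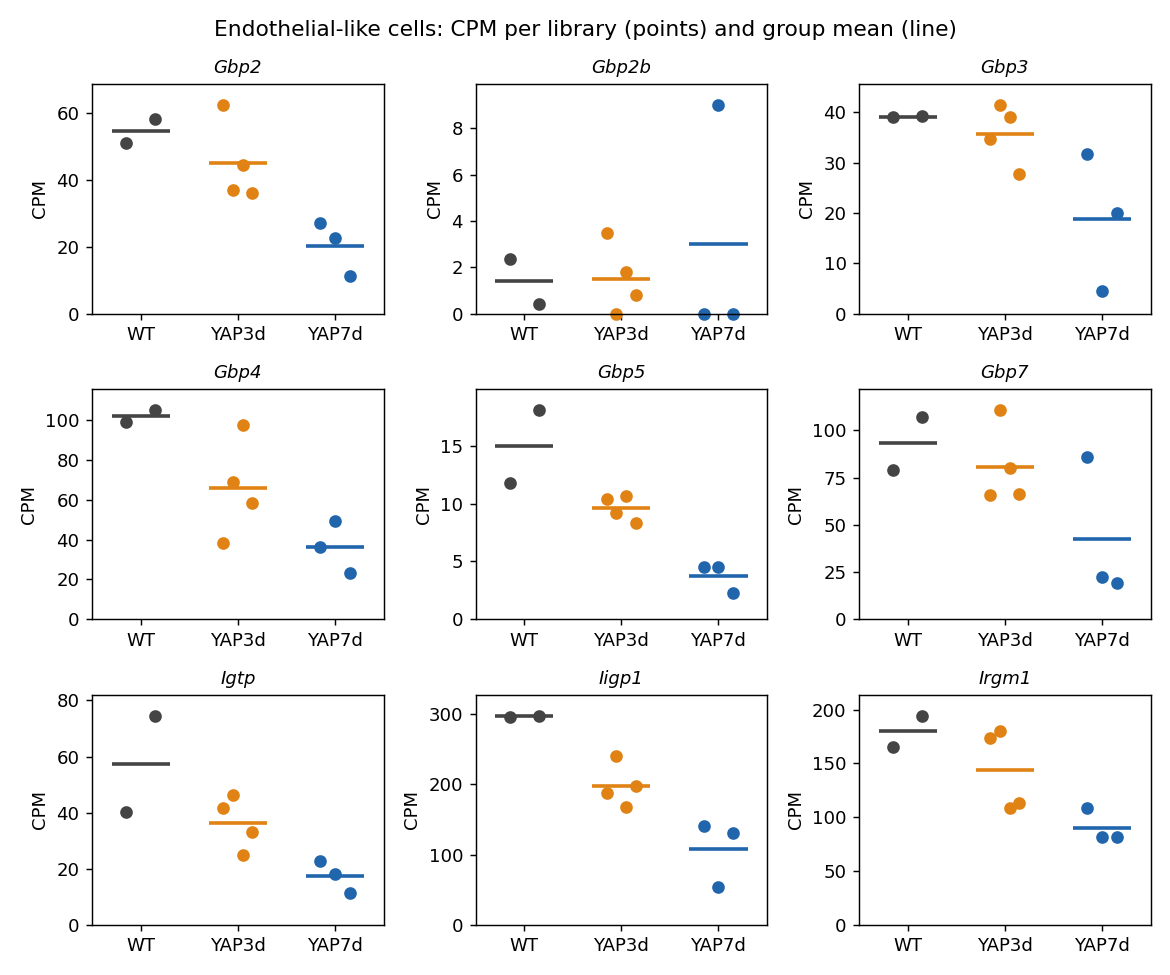
CPM of the members in endothelial-like cells, 1 point per library and a line at the group mean (2 WT, 4 YAP3d, 3 YAP7d; each panel has its own axis from 0). For Iigp1 the WT points lie at 296 and 298 CPM and the YAP7d points at 54.1 to 140.0 CPM, with the YAP3d points between them.

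Endothelial-like cells of YAP3d gave no called member against WT. By edgeR 0 of 7 members and 0% of the 7528 genes passed, and DESeq2 called 0. At an unadjusted p below 0.05, edgeR found 3 members lower, against 0.863% of genes, and DESeq2 found 1. All 7 log2 fold changes were negative, against 47.9% of genes, and ran from -0.80 to -0.23 with a median of -0.42. Between YAP7d and YAP3d, 1 member, Gbp2, passed, with a log2 fold change of -1.27 (SE 0.35, adjusted p = 0.0223, edgeR), while DESeq2 called 1 other member, Iigp1, and not Gbp2, against 7.77% of genes called lower by edgeR. The call for Gbp2 was lost without YAP7d replicate 3 (log2 fold change -0.73, adjusted p = 0.358, edgeR) and without YAP3d replicate 1 (adjusted p = 0.0539, edgeR), and in 4 of 10 other alternatives. Library values did not overlap and were lower for 4 members, against 14.8% of genes, and the 7 log2 fold changes ran from -1.27 to -0.55.

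The class itself differed between the groups beyond the members. The 12 markers used to name endothelial-like cells summed to 17760.1 to 19708 CPM in WT, 16155 to 18251 CPM in YAP3d and 8131 to 8364 CPM in YAP7d. The 14 heat shock and dissociation genes summed to 8595 to 11687 CPM in WT and 3887 to 4399 CPM in YAP7d, and 11 of them were called lower. Of 15 tested cell cycle genes, 14 were called higher in YAP7d. The 12 macrophage markers summed to 227 to 446 CPM in WT and 384 to 828 CPM in YAP7d. Whether any of these bears on the members' fall was not tested.

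T cell-like and NK cell-like cells, in which Gbp4, Gbp7 and Igtp are abundant, showed no called member in any contrast. In T cell-like cells Igtp was at 150.1 and 105 CPM in WT, 155, 131, 117 and 82.8 CPM in YAP3d and 145, 61.2 and 49.6 CPM in YAP7d. Gbp4 was at 97.8 and 69.7 CPM in WT, 97.4, 104, 89.6 and 59.1 CPM in YAP3d and 131, 109 and 45.4 CPM in YAP7d. Gbp7 was at 116 and 74.5 CPM in WT, 121, 122, 133 and 70.6 CPM in YAP3d and 143, 105 and 52.0 CPM in YAP7d. The YAP7d libraries spread to both sides of WT for Gbp4 and Gbp7. Irgm1 was at 70.5 and 46.6 CPM in WT and 55.1, 51.0 and 25.7 CPM in YAP7d. The log2 fold changes of YAP7d over WT (edgeR) were -0.56 for Igtp, -0.44 for Irgm1, -0.25 for Gbp3, -0.15 for Gbp2, 0.07 for Gbp7, 0.16 for Gbp4 and 0.47 for Iigp1. Gbp2b and Gbp5 were too low to be tested, with means of 0.798 and 9.67 CPM. By edgeR 0 of 7 passed, as did 0% of 5936 genes, and DESeq2 called 0. At an unadjusted p below 0.05 edgeR found 0 members, against 4.63% of genes that were lower. YAP3d against WT also gave 0 members by both tools and 0% of genes, and YAP7d against YAP3d 0 members and 1.89% of genes.

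In NK cell-like cells Gbp7 was at 103 and 65.8 CPM in WT, 93.1, 107, 130.1 and 81.6 CPM in YAP3d and 82.5, 72.6 and 40.9 CPM in YAP7d. Igtp was at 56.1 and 76.3 CPM in WT, 62.1, 68.5, 65.0 and 79.6 CPM in YAP3d and 49.8, 59.0 and 29.3 CPM in YAP7d. WT and YAP7d overlapped for both genes. Gbp2 was at 46.7 and 31.6 CPM in WT, 31.03, 26.8, 16.3 and 38.8 CPM in YAP3d and 18.5, 18.2 and 15.7 CPM in YAP7d, with both WT values above all 3 YAP7d values. Its log2 fold change of YAP7d over WT was -0.93 (SE 0.49, adjusted p = 0.313, edgeR). The log2 fold changes of the other tested members were -0.91 for Irgm1, -0.59 for Igtp, -0.20 for Gbp7, 0.03 for Gbp4 and 0.26 for Gbp3. Gbp2b had 0 counts in these cells, and Gbp5 and Iigp1, with means of 12.1 and 6.97 CPM, were too low to be tested. Here too edgeR called 0 members and DESeq2 0, while 3.72% of 5559 genes passed by edgeR. No member, 0 of 6, had an unadjusted p below 0.05 (edgeR), where 9.05% of genes were lower. YAP3d against WT gave 0 members by both tools and 0% of genes, and YAP7d against YAP3d 0 members and 10.7% of genes. None of the members could be tested in B cell-like cells, where their counts were too low.

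The YAP7d minus WT change was also compared between classes on per-library differences (limma). Between macrophage-like and endothelial-like cells 0 of 7 members and 0 of 5776 genes had an adjusted p below 0.05, of which 334 had an unadjusted p below 0.05. Without WT replicate 2 the counts were 0 members and 277 genes (4.8%). The differences for the 7 members ran from -0.91 (Gbp4, SE 1.07) to 0.75 (Gbp7, SE 0.74). The macrophage side of this comparison, too, is the contrast known when the members were listed, so these values are a description. Between macrophage-like and T cell-like cells the change of Iigp1 was -2.21 in the former and 0.41 in the latter, a difference of -2.63 (SE 0.27). The same limit holds here, and the adjusted p (limma) exceeded 0.05 in 8 of 9 fits that left out 1 library, so the difference is given as a description.

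**Figure D4:**
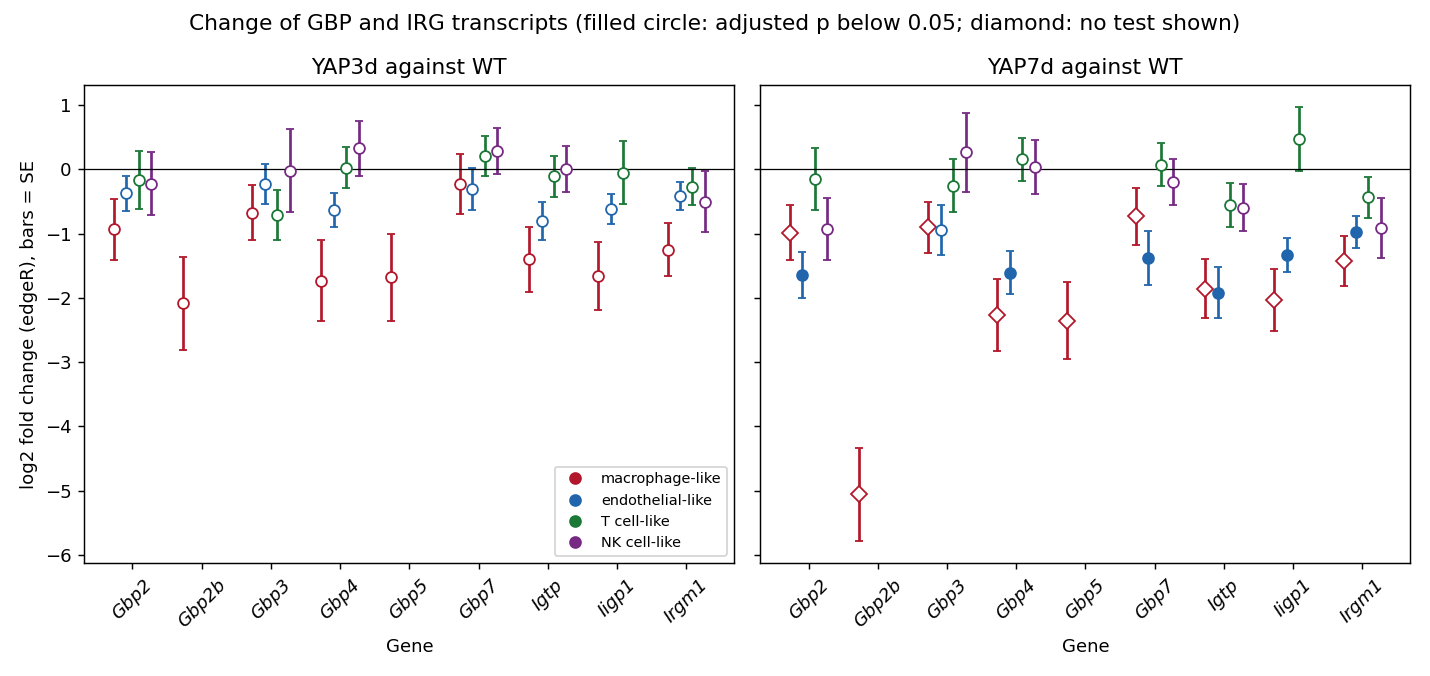
Log2 fold change (edgeR, bars are SE) of each member in 4 cell classes, YAP3d against WT (left) and YAP7d against WT (right); filled circles have an adjusted p below 0.05, and diamonds mark macrophage-like cells in the contrast known when the members were listed, for which no test is shown. In the right panel 6 of 7 endothelial-like circles are filled, and the T cell-like and NK cell-like circles lie between -0.93 and 0.47.

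Upstream of the members, the ligand was read in the cells that make it. Ifng was at 796 and 289.5 CPM in WT T cell-like cells, 337, 179, 412 and 162 CPM in YAP3d and 131, 170.1 and 258 CPM in YAP7d. Both WT values lay above all 3 YAP7d values, but the log2 fold change of -1.39 (SE 0.43) did not pass (adjusted p = 0.256, edgeR). In NK cell-like cells Ifng was at 505 and 495 CPM in WT and 465, 268 and 222 CPM in YAP7d (log2 fold change -0.53, adjusted p = 0.462, edgeR). Ifngr1, the ligand-binding chain, did not pass in either class, with log2 fold changes of -0.08 in macrophage-like cells (adjusted p = 0.956) and 0.43 in endothelial-like cells (adjusted p = 0.26, both edgeR). For Ifngr2, the other chain, they were -0.27 and 0.18.

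Irf1, a transcription factor that acts on both families, was lower in part. It was at 195 and 181 CPM in endothelial-like cells of WT, 149, 166, 157 and 155 CPM in YAP3d and 72.3, 99.2 and 80.2 CPM in YAP7d, with no overlap among the 3 groups and a log2 fold change of -1.11 (SE 0.20, adjusted p = 0.00125, edgeR). In macrophage-like cells Irf1 was at 140.3 and 136 CPM in WT and 72.0, 40.6 and 68.4 CPM in YAP7d, and its log2 fold change of -1.21 did not pass (adjusted p = 0.113, edgeR).

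Irf1 also fell in NK cell-like cells, from 122 and 171 CPM in WT to 55.4, 90.8 and 57.2 CPM in YAP7d (log2 fold change -1.12, adjusted p = 0.0486, edgeR), although no member was called in these cells. The 14 heat shock and dissociation genes summed to 9377 to 12170.0 CPM in WT and 5017 to 6959 CPM in YAP7d there, and 6 of 13 tested were called lower. Their part in the Irf1 value was not tested. Of 12 tested receptor and signalling genes in endothelial-like cells, 4 were lower, against 8.14% of all genes, and 1 was higher. Besides Irf1 these were the inhibitors Pias1 (-1.26) and Socs1 (-1.18) and the kinase Jak1 (-0.71), while Irf8, an interferon regulatory factor, rose by a log2 fold change of 1.52 (adjusted p = 0.000302, edgeR). Irf8 was at 73.3 and 83.7 CPM in WT, 101 to 171 CPM in YAP3d and 199, 239 and 218 CPM in YAP7d. The summed macrophage markers of this class, given above, also reached higher values in YAP7d than in WT, with overlap. Their part in the Irf8 value was not tested.

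Other targets of interferon-gamma gave a similar picture in part. Cxcl9, a chemokine that draws T cells, was at 218 and 300.2 CPM in endothelial-like cells of WT, 305, 235, 212 and 242 CPM in YAP3d and 67.7, 99.2 and 113 CPM in YAP7d. It fell by 1.35 on the log2 scale against WT (SE 0.24, adjusted p = 0.00113) and by 1.26 against YAP3d (adjusted p = 0.0011, both edgeR), and its YAP3d values overlapped WT. In macrophage-like cells Cxcl9 was at 51.0 and 249.8 CPM in WT and 15.7, 38.3 and 3.88 CPM in YAP7d (log2 fold change -3.35, SE 0.76, adjusted p = 0.033, edgeR). In WT replicate 2, 117 of the Cxcl9 counts came from 10 cells of the cluster without Kupffer markers (1191 CPM) and 10 from the other macrophage-like cells. Within the clusters with Kupffer markers Cxcl9 was at 52.7 and 24.4 CPM in WT and 19.9, 51.8 and 3.97 CPM in YAP7d, and the groups overlapped. Ciita, the master regulator of MHC class II genes, was highest in type 2 dendritic cell-like and B cell-like cells and too low in macrophage-like cells to be tested (0 to 21.6 CPM). Of 13 tested targets in endothelial-like cells 3 were lower, where 8.14% of all genes were, Psmb9 of the immunoproteasome among them (-0.77, adjusted p = 0.0121, edgeR). Of 17 in macrophage-like cells 2 were lower, where 2.20% of all genes were called in either direction. These were Cxcl9, whose level in WT replicate 2 rests mostly on those 10 cells, and Serpina3g (-2.32, adjusted p = 0.0106, edgeR).

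**Figure D5:**
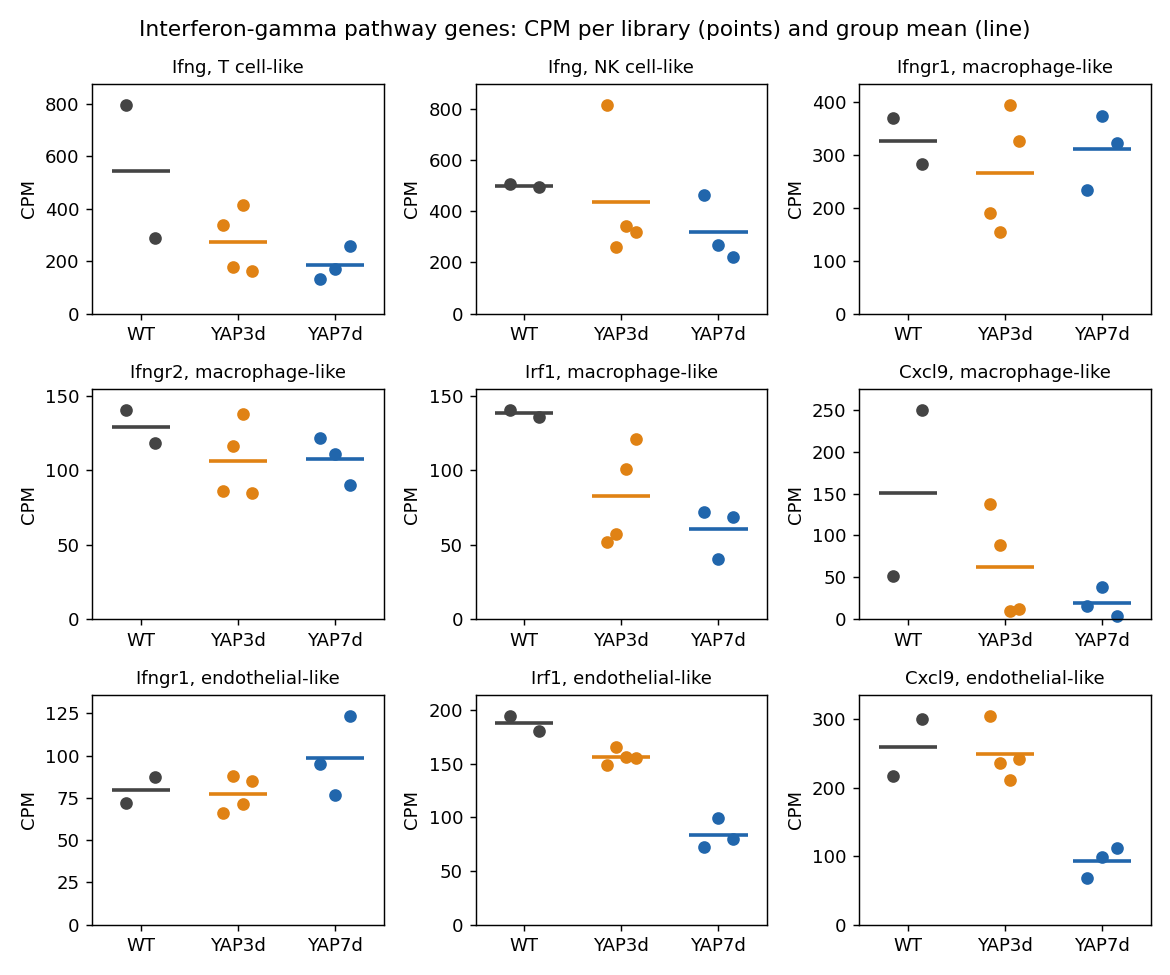
CPM per library (points) and group mean (line) of Ifng in T cell-like and NK cell-like cells, Ifngr1, Ifngr2, Irf1 and Cxcl9 in macrophage-like cells, and Ifngr1, Irf1 and Cxcl9 in endothelial-like cells, each axis from 0. Irf1 in endothelial-like cells separates the 3 groups at 181 and 195 CPM, 149 to 166 CPM and 72.3 to 99.2 CPM, while the WT and YAP7d points of Ifngr1 overlap in both classes.

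The rest of both families was also lower in part in endothelial-like cells, where 4 of 7 tested genes were lower, against 8.14% of all genes, and 7 of 7 log2 fold changes were negative. These 4 were the IRG genes Irgm2 (-2.82, adjusted p = 0.0012), Tgtp2 (-1.95, adjusted p = 0.0251), Gm4951 (-1.81, adjusted p = 0.000157) and Ifi47 (-1.71, adjusted p = 0.00116, all edgeR). Gm4951 was at 162 and 172 CPM in WT, 96.5 to 129.8 CPM in YAP3d and 35.7 to 67.7 CPM in YAP7d. In macrophage-like cells 2 of 7 were called, against 2.20% of all genes, Irgm2 (-2.27, adjusted p = 0.0466) and Gbp8 (-2.10, adjusted p = 0.03, both edgeR). Of the 16 other family genes 14 were in the table.

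Genes induced by type I interferon, a response known to act through the ISRE, were lower in endothelial-like cells for 9 of 15 tested, against 8.14% of all genes called lower in this class, among them Ifit3 (-2.19), Ifit1 (-1.89), Ddx58 (-1.50), Cmpk2 (-1.36) and Oas1a (-1.28). In macrophage-like cells 0 of 17 passed by edgeR, although all 17 log2 fold changes were negative, with a median of -0.89. Partners of the GTPases in the cell were also read. Of 6 tested inflammasome genes in endothelial-like cells 1, Casp4, which encodes caspase-11, was lower (-1.12, adjusted p = 0.0183, edgeR), and of 10 autophagy conjugation genes 1, Gabarapl1, was lower (-0.93, adjusted p = 0.0323, edgeR). Against the 8.14% of all genes called lower, 1 of 6 and 1 of 10 are no result about either list. In macrophage-like cells 0 of 8 and 0 of 9 passed, where 2.20% of all genes did. In the contrast of YAP3d with WT, edgeR called 0 genes of every one of these lists in every class tested. It called 0% of all genes in macrophage-, endothelial-, T cell- and NK cell-like cells, so this is no result about the lists.

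Within the families the members did not all vary together. Over 68 sums of a library and class with at least 20 cells, the correlation of log2(CPM + 10) between 2 members, after the mean of each class was taken off, ran from 0.02 (Gbp7 and Gbp2b) to 0.73 (Irgm1 and Igtp), with a median of 0.41 over 36 pairs. Among 5720 genes, Ifi47 was the gene most like Irgm1 (r = 0.79), Igtp (r = 0.78), Gbp2 (r = 0.65) and Gbp5 (r = 0.62) by this measure. The levels of Gbp2b were most like those of Cxcl13 (r = 0.86), C6 (r = 0.85) and Cd163 (r = 0.82). Those of Iigp1 were most like Crip2 (r = 0.89) and Gm4951 (r = 0.88), whose gene lies close to Iigp1. By levels Irgm1 was most like Xaf1 (r = 0.84). These sums share libraries, depth and classes, so the correlations are a description.

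Hepatocyte-like cells, which carry the transgene, had Iigp1 at 148, 311 and 162 CPM in YAP3d replicates 2 to 4 and 225, 87.2 and 85.3 CPM in YAP7d. No WT library held 10 such cells, and the level without induction could not be given. Gbp2 in nonclassical monocyte-like cells, its highest class, was at 144 CPM in WT replicate 2, 170.3 and 118 CPM in 2 YAP3d libraries and 54.7, 88.7 and 36.2 CPM in YAP7d. All 3 YAP7d values lay below the other 3, but with 1 WT library the class was not tested.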

How the data were processed

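Livers of 9 libraries (2 WT, 4 YAP3d, 3 YAP7d) were profiled by droplet-based 3' single-cell RNA-seq. The authors counted UMIs per gene and cell against mm10 with Cell Ranger and, per the labels, used Seurat 2; the deposited table holds these counts as whole numbers, with the library of each cell in its name. Libraries were sequenced to different depths, so a member's value is less precise where its counts are few. SDs and SEs measure the spread between libraries, and the level of 3 counts given beside a 0 covers counting error only.

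The members, gene lists, markers and tests were chosen with earlier results of these data known. Cells with under 200 genes were left out (35), 60 Scrublet doublets (0.704%) were kept, and 8527 cells were clustered (scanpy 1.11.5, leidenalg 0.10.2, Python 3.11.15) on 2410 genes without the listed ones, which gave 24 clusters. Of 170 markers 168 were in the table, and 22 cells stayed unnamed. UMI counts were summed per library and class. Sums were tested with edgeR 4.0.16 (R 4.3.3; filterByExpr, TMM, quasi-likelihood, 3 groups in 1 fit), with Benjamini-Hochberg adjustment over all genes of a class and a threshold of 0.05; SE is the log2 fold change over the square root of F. DESeq2 1.42.0 was an alternative. Changes were compared between classes with limma 3.58.1 on log2 CPM (prior count 2). The study's methods name no test for these libraries. The code was tested on simulated data.

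All members are named in each class in which they were tested, and in the others by their level. Of each other list, genes are named with an adjusted p below 0.05 and no overlap between groups, at most 5 each way; Ifng, Ifngr1, Ifngr2, Irf1, Cxcl9 and Ciita are named whatever their change, and 1 further gene of that kind is not reported here. Likeness names genes by the highest Pearson correlation. Alternatives left out each library, the low-count filter or doublets, and changed scaling, groups, clustering, cells or terms. Of the gene symbols, 22794 matched RefSeq, all 10 members among them; promoters of Gbp4, Gbp6 and Iigp1 and proteins were not used here.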

Additional observations from a re-analysis of the deposited data

Results flagged for a closer look

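The YAP7d minus WT change of Iigp1, an effector IRG, was -2.63 apart between macrophage-like and T cell-like cells on the log2 scale. It is listed because the difference itself was tested and passed in the fit to all libraries. The macrophage side is the contrast known when the members were listed, and the adjusted p (limma) exceeded 0.05 in 8 of 9 fits that left out 1 library. In the remaining fit, without WT replicate 2, 272 of 5043 genes (5.39%) passed, so nothing is read from the difference. Iigp1 was lower in macrophage-like cells of all 3 YAP7d libraries than in both WT libraries, and in T cell-like cells it was at 24.1, 30.6 and 10.2 CPM in YAP7d against 20.5 and 10.3 CPM in WT. Of 48 groups of 4 libraries, 5 held a library far from the other 3, where chance gives about 1 in 20 groups. That rate does not hold for 3 of the 5, in which the other libraries were all at 0, and all 5 rest on 1 to 5 counts. In macrophage-like cells Igtp was at 51.7 CPM in YAP3d replicate 1, on 3 counts from 12 cells, against 27.6 to 31.4 CPM in the other YAP3d libraries. In B cell-like cells Irgm1 was at 45.6 CPM in YAP3d replicate 2, on 5 counts, against 14.6 to 17.7 CPM. YAP3d replicate 4, the largest of its group, was the only one of the 4 with counts of Gbp2b in B cell-like cells (0.384 CPM, 1 count), of Gbp2b in T cell-like cells (0.36 CPM, 1 count) and of Iigp1 in B cell-like cells (1.54 CPM, 4 counts).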

How the results depend on the processing

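Counts of members with an adjusted p below 0.05 by edgeR changed when libraries were left out, some of which varied together, as given below. In endothelial-like cells, YAP7d against WT gave 6; leaving out 1 library gave 2 to 6 (without a WT library, the lone one is assumed to vary like the other groups), leaving out YAP7d replicates 2 and 3 together gave 0, and a term for libraries with over 100 CPM of Gm10709, added after seeing the data, gave 2. No log2 fold change of a member changed sign there in 133 values under alternatives. In macrophage-like cells the same contrast, known when the members were listed, is given as a description from which nothing is read: it gave 5, where 2.20% of all genes passed, and ran from 1 to 6 without 1 library: it was 1 without WT replicate 1, WT replicate 2, YAP3d replicate 1, YAP3d replicate 3 or YAP7d replicate 3 and 2 without YAP7d replicate 2. It was 0 with the Gm10709 term, which also turned Gbp2 to 0.12, 1 without YAP7d replicates 2 and 3, 3 without doublets and 2 in the clusters with Kupffer markers. YAP7d against YAP3d in endothelial-like cells gave 1, then 5 without the low-count filter, 2 with only these 2 groups or without doublets, 0 with at most 100 cells per sum or without YAP7d replicates 2 and 3, and 1 to 2 without 1 library. In macrophage-like cells it gave 0, and 1, Gbp2b, without the filter, in the Kupffer clusters or without YAP3d replicate 2 (0 to 1 without 1 library). YAP3d against WT in macrophage-like cells gave 0, and 1, Gbp2b, without the filter. The difference between macrophage-like and T cell-like cells gave 1, and 0 to 1 without 1 library. The causes were not tested. In T cell-like and NK cell-like cells every alternative gave 0.

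The labels give same-numbered libraries nothing in common but the number. Deviations from the group mean correlated above 0.1 in 0 of 7 same-numbered pairs in macrophage-like cells. They did so in 2 of 7 in endothelial-like, 2 of 7 in NK cell-like, 3 of 7 in B cell-like and 3 of 7 in T cell-like cells. The deviations of the 2 WT libraries are mirror images, so these counts cannot settle whether same-numbered libraries share more. With the replicate number as a block the counts for YAP7d against WT were 5 and 4. Across numbers, the deviations of WT replicate 2, YAP3d replicate 4 and YAP7d replicate 3 correlated positively in each of these classes. The values were 0.51, 0.50 and 0.56 in B cell-like cells and 0.13, 0.18 and 0.23 in macrophage-like cells. In these libraries 1.6%, 1.5% and 2.0% of cells had over 10% mitochondrial counts, against 5.5% to 14.1% in the others. What they share is not given in the labels and was not tested. Endothelial-like cells could not be fitted with a minimum of 500 genes and at most 10% mitochondrial counts, or at a resolution of 0.5, since libraries fell below 10 cells; the cluster without Kupffer markers was not fitted, and a Gm10709 term at 3 counts was not run because every library passed it.

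With 23 to 64 endothelial-like cells per YAP7d library and 12 to 82 macrophage-like cells per WT or YAP3d library, single members rest on few counts. Differences well over their SE could fail to pass, as for Gbp3 in endothelial-like cells of YAP7d against WT (log2 fold change -0.95, SE 0.39, adjusted p = 0.103, edgeR). A member that did not pass is therefore not shown to be unchanged.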
